A study of Mus musculus with 12 samples.

Results

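The interferon-stimulated genes followed here are 43 mouse genes fixed as a list of symbols, and a gene was kept when it had at least 10 counts in 3 or more of the 12 libraries. All 43 met that rule, as did 20264 of 52553 features in the whole series. They comprise 11 type I-type genes of the Ifit, Oas and Mx families, 10 interferon gamma-type genes (the guanylate-binding proteins Gbp2, Gbp3, Gbp4, Gbp5 and Gbp7, the immunity-related GTPases Igtp, Irgm1, Irgm2 and Iigp1, and the chemokine Cxcl9) and 22 other members. The count limit took no account of group, and differences between the groups played no part in the rule. The list itself was chosen with earlier results of these data known.

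RNA-seq was carried out on monocytes of male C57BL/6 mice, captured on magnetic beads by CD115, the product of Csf1r. The 4 groups were blood and splenic cells of animals with spleen and liver intact and blood and splenic cells taken 24 h after removal of 70% of the liver, with 3 libraries in each group and the cells of 5 animals pooled in each library. Splenic cells were released by mechanical disaggregation and collagenase, followed by red cell lysis and a density gradient, whereas blood cells passed through the gradient only, so a difference between the tissues also holds a difference in preparation. The labels do not say whether the intact animals had a sham operation, and without one resection and surgery as such cannot be told apart. The p-values measure the spread between pools of animals.

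Type I interferons (interferon beta and the interferon alphas) signal through the receptor chains Ifnar1 and Ifnar2 to a complex that includes Stat2 and Irf9 and binds the interferon-stimulated response element (ISRE) in promoters of antiviral genes. Interferon gamma signals through Ifngr1 and Ifngr2 and acts at gamma-activated sites (GAS), driving GTPases that act against intracellular microbes and chemokines that attract T cells. The classes overlap, since many genes respond to both kinds of interferon. Monocytes respond to both and can themselves make interferon beta.

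Promoter sequence was available for 32 of the 43 members, as RefSeq windows of GRCm38.p6 around the annotated start of transcription. Windows for Mx1, Mx2, Oas2, Usp18, Dhx58, Rtp4, Zbp1, Parp9, Parp14, Gbp4 and Iigp1 were not used. The letters GAAA, any 2 bases and GAAA again, or TTTC, any 2 bases and TTTC where they lie on the other strand, stood for the ISRE core, in which adjoining matches may overlap. They were found in 18 of the 32 members (56.2%) and in 3.44% of 32851 promoters. A member counted when any of its promoters matched, and some had more than 1 (Isg20 had 3), whereas the background counts each promoter singly. The shares of members and of all promoters therefore differ in unit. The palindromic letters TTCNNNGAA stood for GAS and were found in 10 of the 32 (31.2%) and in 8.30% of all promoters. The ISRE core was present in 5 of 8 type I-type, 7 of 8 gamma-type and 6 of 16 other members, and the GAS letters in 2 of 8, 4 of 8 and 4 of 16. Among members with a window that were called after resection in blood (test described below), the ISRE core was in 2 of 3 higher and 1 of 5 lower ones. The GAS letters were in 0 of 3 and 2 of 5. A match describes the letters only.

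Windows without a match, such as those of Oasl1, Ifi44, Herc6 and Dtx3l, are not shown. The windows below are shown because they carry the matched letters in members named in the results and in close relatives, and capitals mark those letters. They are the stretch of Cxcl10 at chr5:92349065-92349114, of Isg15 at chr4:156200859-156200918 and of Irgm1 at chr11:48871421-48871480, all on the minus strand, and of Ifit1 at chr19:34640769-34640828, Ifit3 at chr19:34583359-34583428, Ifit3b at chr19:34607755-34607824, Igtp at chr11:58199496-58199545 and Irgm2 at chr11:58214887-58214936 on the plus strand. Each reads 5′ to 3′ in the direction of its gene.
Cxcl10: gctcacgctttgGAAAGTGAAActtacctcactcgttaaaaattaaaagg
Isg15: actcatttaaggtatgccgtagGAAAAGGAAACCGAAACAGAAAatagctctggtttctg
Ifit1: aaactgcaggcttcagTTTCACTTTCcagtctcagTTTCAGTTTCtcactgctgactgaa
Ifit3: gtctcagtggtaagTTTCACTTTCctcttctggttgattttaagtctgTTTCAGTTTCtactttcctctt
Ifit3b: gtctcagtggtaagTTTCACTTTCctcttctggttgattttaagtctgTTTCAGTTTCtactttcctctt
Igtp: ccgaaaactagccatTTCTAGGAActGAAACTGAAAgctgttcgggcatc
Irgm2: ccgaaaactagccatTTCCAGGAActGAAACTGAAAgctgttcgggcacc
Irgm1: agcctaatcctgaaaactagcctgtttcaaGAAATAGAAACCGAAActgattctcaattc

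The Isg15 window holds 3 overlapping ISRE cores, and the Cxcl10 window holds 1. Ifit3 and Ifit3b were identical over the 70 bases shown. The Igtp and Irgm2 windows, in which a GAS match stands just before an ISRE core, agreed at 48 of 50 bases. Each of these pairs is made of close relatives, and how reads shared between them were counted is not given in the sources used here, so their single values are uncertain. The same holds for the Oas and Gbp families.

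The libraries held 36990033 to 46401368 estimated counts. Haemoglobin genes took 13.2% to 34.2% of the blood libraries and 0.0814% to 3.47% of the splenic ones. Levels are given as CPM, the counts divided by library sizes scaled with TMM, and every level below is on that scale unless log2 is written. Fold changes are from edgeR's quasi-likelihood test over all 12 libraries, and a gene was called when its Benjamini-Hochberg adjusted p over 20135 features was under 0.05 and its log2 fold change was beyond 1 in either direction. The 7 general monocyte markers, Csf1r among them, summed to 2798 to 3822 CPM in the splenic and 3499 to 15478 CPM in the blood libraries. Other cells were also represented in the RNA. In this bulk RNA, fewer cells of a type and less RNA per cell cannot be told apart.

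Intact blood library 3 stood apart for the members. It was the lowest library of its group for 38 of the 43, against 41.5% of all features. Its median log2 CPM, centred per gene on the 12 libraries, was -0.85, against 0.40 and 0.50 in intact blood libraries 1 and 2. The marker sums of this library also differed from those of libraries 1 and 2. T-cell markers summed to 2181 CPM, against 655 and 658 CPM, and general monocyte markers to 3499 CPM, against 8789 and 6017 CPM. B-cell markers summed to 529 CPM, against 1666 and 2371 CPM. The part of these differences in the members' values was not tested. Resected spleen library 3 was the highest of its group for 34 of the 43 and resected blood library 3 for 28. Counts of calls that change without one of these libraries are given both ways below.

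**Figure D1:**
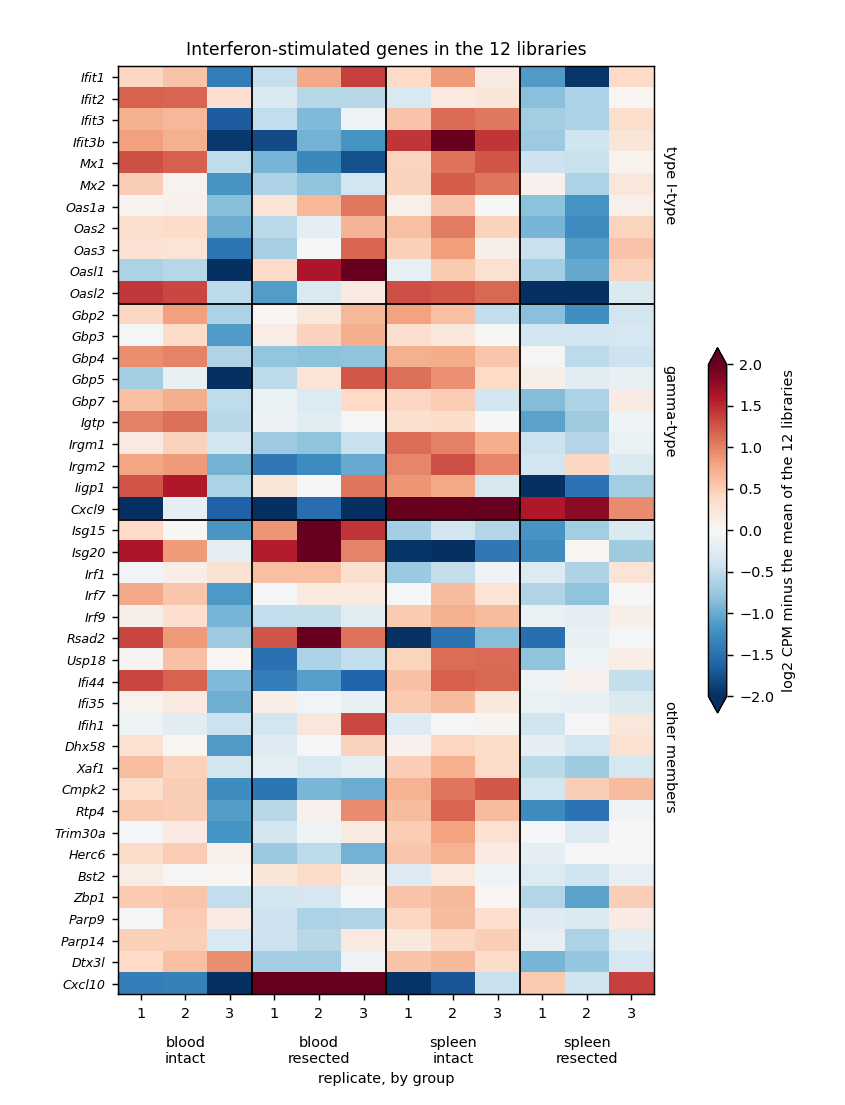
Each cell is the log2 CPM of 1 gene in 1 library minus that gene's mean over the 12 libraries, with colour cut off at 2 in either direction. Lines separate the 4 groups and the 3 classes of genes. Intact blood library 3 is pale or blue in most rows, whereas intact spleen is mostly red and resected spleen mostly blue or pale, with Cxcl10 red in all 3 libraries of resected blood.

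After resection the blood monocyte libraries had more RNA of a few members and less of a larger number. Of the 43 members 3 were higher (Cxcl10, Oasl1 and Isg15), which is 6.98% against 7.80% of all features, and 7 were lower (Ifit2, Mx1, Ifi44, Herc6, Dtx3l, Gbp4 and Irgm2), which is 16.3% against 6.11%. The share of higher members was thus near the background. The median log2 fold change was -0.34 over the members and -0.10 over all features, and 24 of the 43 (55.8%) were below 0, against 54.8% of all features. The libraries of both states did not overlap for 5 members in the higher direction (11.6%, all features 19.4%) and for 10 in the lower direction (23.3%, all features 19.0%). DESeq2 called 3 members higher (10.3% of all features) and 9 lower (8.03%).

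Cxcl10, a chemokine for T and NK cells that carry Cxcr3, stood at 1.29, 1.31 and 0.240 CPM in intact blood and at 14.6, 33.3 and 40.3 CPM after resection. The lowest library after resection was far above the highest intact one. Its log2 fold change was 4.96 with a standard error (SE) of 0.81 (31.0-fold, adjusted p = 0.00349), the largest increase among the members, and it was called in all 20 alternative fits run for single genes.

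Oasl1, a member of the oligoadenylate synthetase family known to restrain translation of Irf7, stood at 23.9, 25.1 and 5.92 CPM in intact blood and at 48.1, 114 and 197 CPM after resection. The groups did not overlap, but the resected libraries spread widely. The log2 fold change was 2.71 with a standard error of 0.66 (6.55-fold, adjusted p = 0.0178), and the call was lost without resected blood library 3. The call was also lost when only the 2 blood groups were fitted.

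Isg15, a ubiquitin-like protein that is attached to other proteins or secreted, stood at 36.0, 27.3 and 12.1 CPM in intact blood and at 50.4, 129 and 73.4 CPM after resection. All 3 resected libraries lay above all intact ones. The log2 fold change was 1.74 with a standard error of 0.43 (3.35-fold, adjusted p = 0.0195), and the call was lost without resected blood library 2 or without intact blood library 2. It did not hold either when only the 2 blood groups were fitted.

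The lower members came from each class. Ifit2, a protein with tetratricopeptide repeats that restricts viral translation, stood at 32.1, 31.9 and 17.9 CPM in intact blood and at 11.5, 9.58 and 9.63 CPM after resection. The resected libraries were close together and below all intact ones. The log2 fold change was -1.41 with a standard error of 0.29 (adjusted p = 0.00930), and this call also held in all 20 alternative fits. Mx1, a dynamin-like GTPase of which C57BL/6 mice carry a defective allele, stood at 14.6, 14 and 4.24 CPM in intact blood and at 3.14, 2.45 and 1.77 CPM after resection. Without overlap between the groups, the log2 fold change was -2.15 with a standard error of 0.46 (adjusted p = 0.0104).

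Among the gamma-type genes, Gbp4 stood at 102, 105 and 35.1 CPM in intact blood and at 30.6, 30.1 and 30.5 CPM after resection, with a log2 fold change of -1.41 and a standard error of 0.34 (adjusted p = 0.0176). Irgm2, which regulates other immunity-related GTPases, stood at 26.0, 27.4 and 7.86 CPM in intact blood and at 5.58, 6.28 and 7.49 CPM after resection, with a log2 fold change of -1.66 and a standard error of 0.41 (adjusted p = 0.0198). In both genes intact blood library 3 lay just above the resected libraries and far below the other two intact ones. Both calls were lost without any 1 of resected blood libraries 1, 2 or 3 or intact blood libraries 1 or 2, and when only the blood groups were fitted.

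Of the remaining 22 members, Ifi44 stood at 44.1, 39.8 and 9.46 CPM in intact blood and at 6.68, 8.08 and 5.80 CPM after resection, with a log2 fold change of -2.18 and a standard error of 0.48 (adjusted p = 0.0115). The groups did not overlap, again with intact blood library 3 nearest to the resected ones. Herc6, the ligase that joins Isg15 to its targets in mice, stood at 27.1, 30.0 and 22.5 CPM in intact blood and at 12.6, 14.6 and 10.9 CPM after resection (log2 fold change -1.06, SE 0.18, adjusted p = 0.00398). Dtx3l, a ubiquitin ligase that works with Parp9, stood at 69.5, 80.1 and 101 CPM in intact blood and at 32.8, 32.7 and 49.2 CPM after resection (log2 fold change -1.13, SE 0.22, adjusted p = 0.00714). Dtx3l was one of the few members for which intact blood library 3 was the highest of its group. Herc6 fell in the comparison in which Isg15 itself rose.

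Parp9 and Irgm1 had an adjusted p under 0.05 in blood (0.0147 and 0.0307) but changed by less than the fold limit, with log2 fold changes of -0.77 and -0.78. Values that did not pass the test included Ifit3b, at 3.22, 3.01 and 0.437 CPM in intact blood and 0.488, 0.917 and 0.760 CPM after resection. Intact blood library 3 fell below all of the resected ones there. Cxcl9 was close to the limit of counting in blood, with 5, 26 and 10 counts in the intact and 0, 7 and 1 in the resected libraries.

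**Figure D2:**
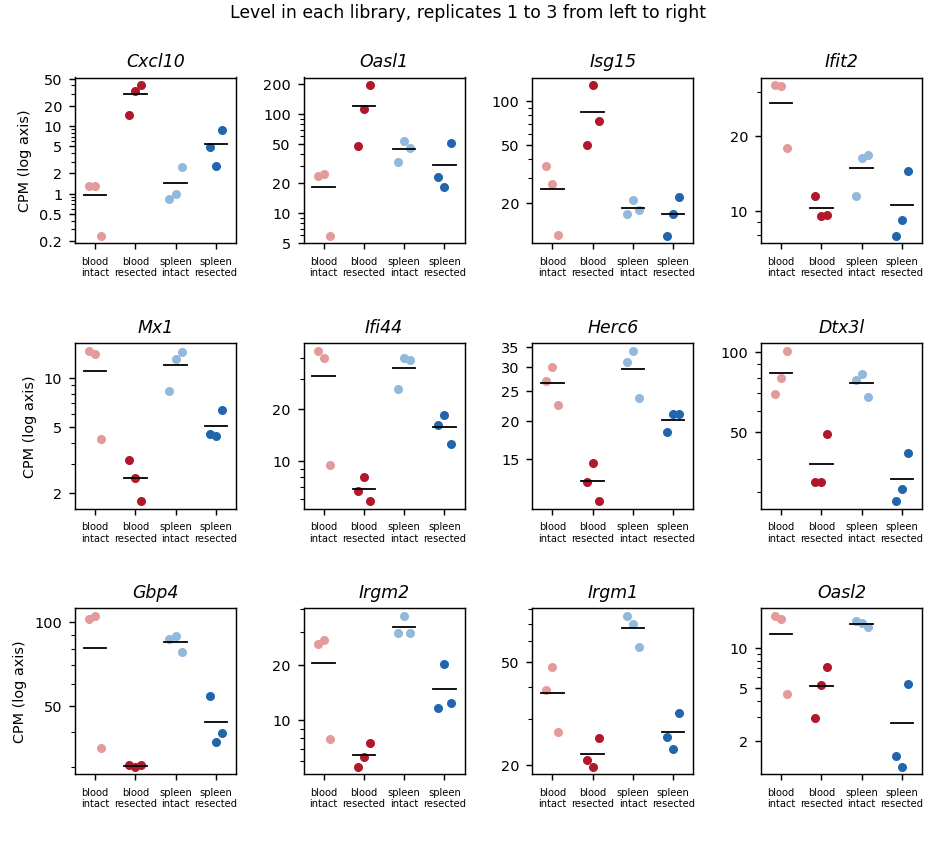
Each point is the CPM of 1 library on a log axis, and the bar is the arithmetic mean of the 3 libraries of a group. Cxcl10, Oasl1 and Isg15 sit higher in resected than in intact blood, and Ifit2, Mx1, Ifi44, Herc6, Dtx3l, Gbp4 and Irgm2 sit lower, while in Irgm2 and Gbp4 intact blood library 3 lies next to the resected libraries.

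The number of members called in blood depended on single libraries and on whether the splenic libraries entered the fit. When only the 2 blood groups were fitted, 1 member was higher (Cxcl10) and 3 were lower (Ifit2, Herc6 and Dtx3l). Of all features 6.14% were then higher and 2.92% lower. Without intact blood library 3 there were 3 higher and 10 lower members (5.36% of all features lower), with Ifit3, Ifit3b, Cmpk2 and Igtp gained and Dtx3l lost. Without resected blood library 3 there were 2 higher and 2 lower (Ifit2 and Dtx3l; all features 3.01% lower), and without intact blood library 2 there were 2 higher and 4 lower (Ifit2, Mx1, Ifi44 and Dtx3l; all features 5.5% lower). Several marker lists of other cells moved in the same comparison. All 11 neutrophil markers were called higher, with a sum of 140 to 497 CPM in intact and 3810 to 19707 CPM in resected blood, and so were all 8 markers of red pulp macrophages (189 to 388 and 1655 to 1949 CPM). Of 6 T-cell markers 5 were called lower (655 to 2181 and 132 to 260 CPM), and 2 of 9 nonclassical monocyte markers were lower while 3 of 6 classical and 5 of 7 general monocyte markers were higher (general markers 3499 to 8789 and 13506 to 15478 CPM). NK-cell markers summed to 141 to 325 CPM in intact and 33.3 to 84.9 CPM in resected blood, and 1 of 8 plasmacytoid dendritic markers was lower. The part of these changes in the members' values was not tested.

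In the spleen the members were lower after resection as a list, although few passed the test singly. The log2 fold change was below 0 for 38 of the 43 (88.4%), against 46.4% of all features, and the median was -0.75 against 0.05. All 11 type I-type genes (median -1.07) and all 10 gamma-type genes (median -1.04) were below 0. The libraries of both states did not overlap in the lower direction for 26 members (60.5%), against 17.7% of all features, and in the higher direction for 2 (4.65%), against 17.4%. At an unadjusted p under 0.05, 19 members were lower (44.2%, all features 9.31%) and 2 were higher (4.65%, all features 11.5%).

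By edgeR's test 0 members were called higher (0.780% of all features) and 2 were called lower (4.65% against 0.596%). DESeq2, which called more features in all, had 1 member higher, Cxcl10 (4.75% of all features), and 8 lower (3.02% of all features). The 2 lower members were Dtx3l and Irgm1. Irgm1, which controls other immunity-related GTPases and autophagy, stood at 74.9, 69.7 and 57.1 CPM in intact spleen, against 25.6, 23.1 and 31.7 CPM after resection. The groups lay well apart, and the log2 fold change was -1.33 with a standard error of 0.22 (adjusted p = 0.0253). Dtx3l stood at 78.6, 82.4 and 67.8 CPM in intact spleen, against 27.7, 30.8 and 42 CPM after resection, again without overlap, with a log2 fold change of -1.19 and a standard error of 0.22 (adjusted p = 0.0362).

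The largest decreases by size did not pass the adjusted test. Oasl2, a further relative of the oligoadenylate synthetases, stood at 15.8, 15.4 and 14.3 CPM in intact spleen, against 1.52, 1.27 and 5.29 CPM after resection. The intact libraries agreed closely and lay above all resected ones, of which library 3 was the highest. The log2 fold change was -2.50 with a standard error of 0.65 (adjusted p = 0.0770). Ifit3b stood at 4.95, 9.64 and 4.96 CPM in intact spleen, against 1.07, 1.35 and 2.14 CPM after resection (log2 fold change -2.10, SE 0.66, adjusted p = 0.115). The groups did not overlap.

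Iigp1, an effector GTPase that acts on parasite vacuoles, stood at 10, 9.29 and 4.32 CPM in intact spleen, against 0.794, 1.90 and 3.29 CPM after resection (log2 fold change -1.98, SE 0.66, adjusted p = 0.132). Rtp4 stood at 22.3, 32.2 and 22.3 CPM in intact spleen, against 5.96, 5.15 and 13.7 CPM after resection (log2 fold change -1.63, SE 0.54, adjusted p = 0.130). Mx1 stood at 8.23, 12.9 and 14.4 CPM in intact spleen, against 4.53, 4.43 and 6.32 CPM after resection (log2 fold change -1.22, SE 0.45, adjusted p = 0.158). None of the 3 genes had overlapping groups.

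Cxcl9, which shares its receptor with Cxcl10, stood at 7.05, 5.66 and 5.24 CPM in intact spleen, against 2.45, 2.82 and 1.52 CPM after resection (log2 fold change -1.40, SE 0.87, adjusted p = 0.398). The 2 members without overlap in the higher direction were Cxcl10 and Isg20. Cxcl10 stood at 0.842, 1.00 and 2.49 CPM in intact spleen, against 4.93, 2.58 and 8.85 CPM after resection (log2 fold change 1.91, SE 0.71, adjusted p = 0.165), with the lowest resected library just above the highest intact one. Isg20, an exonuclease that degrades RNA, stood at 16.8, 15 and 24.3 CPM in intact spleen, against 27.7, 67.4 and 39.9 CPM after resection (log2 fold change 1.27, SE 0.53, adjusted p = 0.209).

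The count of 2 lower members in the spleen depended on nearly every library. It was 0 without intact spleen library 1 or 2, without resected spleen library 1, 2 or 3, or without resected blood library 2, which enters through the shared estimate of the spread. It was 1 without intact spleen library 3, resected blood library 1 or intact blood library 1 or 2. It was 8 without intact blood library 3. The number of all features called lower moved in the same direction, from 120 with all libraries to 0 without intact spleen library 1 or 2 and to 399 without intact blood library 3. Neutrophil markers summed to 1265 to 2286 CPM in intact and 5513 to 14910 CPM in resected spleen, with 2 of 11 called higher, and red pulp macrophage markers to 1313 to 2082 and 2946 to 5660 CPM, with 1 of 8 called higher. Erythroid markers summed to 711 to 3357 and 7503 to 32686 CPM, and conventional dendritic markers to 186 to 209 and 96.0 to 176 CPM. T-cell markers summed to 142 to 299 and 61.3 to 98.8 CPM, NK-cell markers to 68.5 to 141 and 9.10 to 40.6 CPM, and B-cell markers to 4269 to 4828 and 1186 to 3600 CPM, with 0 called in these 3 lists by edgeR, 12 lower at an unadjusted p under 0.05 and 8 lower by DESeq2. The part of these changes in the members' values was not tested.

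**Figure D3:**
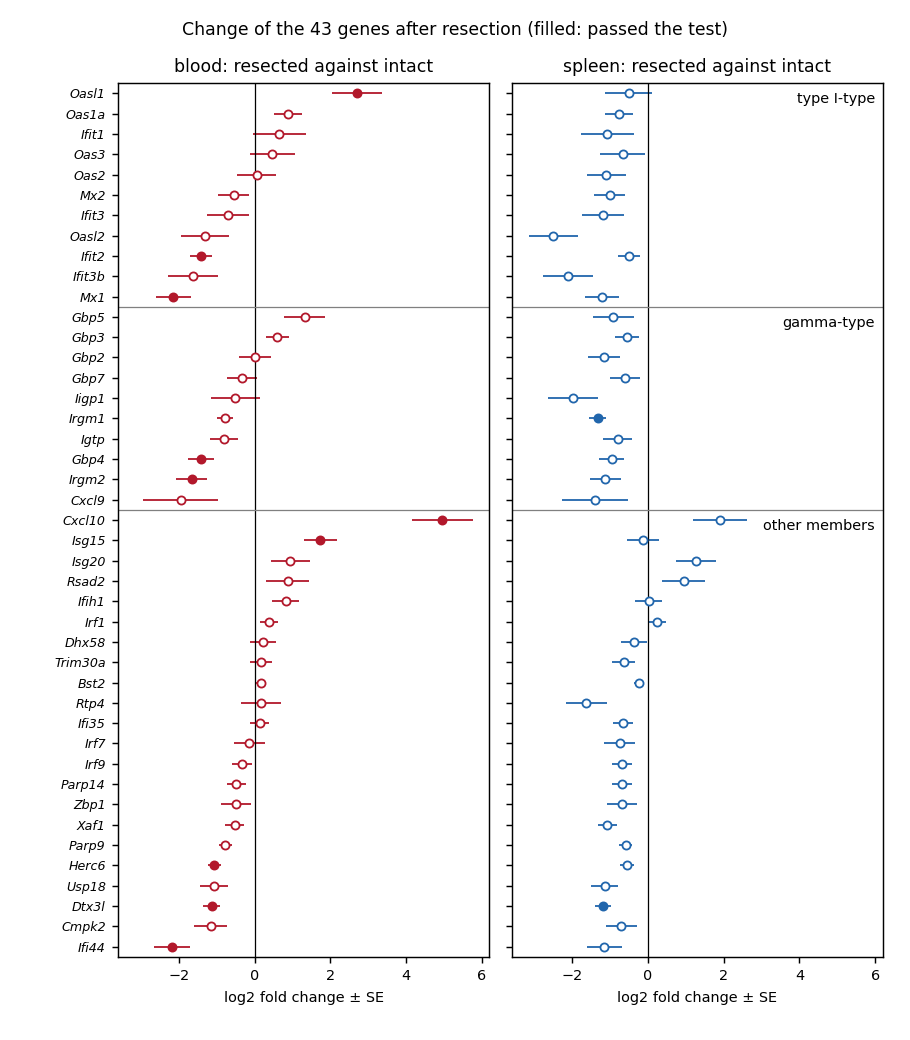
Points are log2 fold changes after resection with their standard errors, for blood on the left and spleen on the right, in the same order of genes within each class. Filled points passed the test (3 higher and 7 lower in blood, 2 lower in spleen). In blood the points lie on both sides of 0, and in spleen 38 of the 43 lie below it.

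The resection comparisons in blood and spleen have no library in common. Of the 43 members 24 (55.8%) were below 0 in both, against 33.5% of all features, 5 were above 0 in both and 14 were above 0 in blood and below 0 in spleen. None was below 0 in blood and above 0 in spleen, whereas 21.2% of all features were. Libraries did not overlap in the lower direction in both tissues for 9 members (20.9%, all features 7.99%), which were Mx1, Usp18, Ifi44, Herc6, Parp9, Dtx3l, Gbp4, Irgm1 and Irgm2. Cxcl10 was the only member without overlap in the higher direction in both (2.33%, all features 7.52%).

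Whether resection changed the members differently in blood and spleen was itself tested. By edgeR's quasi-likelihood test 0 members differed in either direction (0.219% of all features higher and 0.0646% lower), while at an unadjusted p under 0.05 there were 7 members with a higher effect in blood (16.3%, all features 7.74%) and 1 with a lower effect (2.33%, all features 9.56%). The difference was below 0 for 12 members (27.9%), against 55.9% of all features. DESeq2 called 5 (11.6%), which were Cxcl10, Oasl1, Isg15, Oas1a and Gbp5, all with a higher effect in blood (all features 3.26% higher and 2.51% lower). In edgeR the largest difference was that of Oasl1, at 3.22 on the log2 scale with a standard error of 0.90 (adjusted p = 0.157). Cxcl10 differed by 3.04 with a standard error of 1.00 (adjusted p = 0.191). Isg15 differed by 1.88 with a standard error of 0.60 (adjusted p = 0.185). The standard errors are large, and a missed threshold does not show that the tissues responded alike.

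The type I-type and gamma-type genes were also compared as classes. The mean log2 CPM of the 11 type I-type genes was 4.10 ± 0.27 (SD, n = 3) in intact spleen, 2.85 ± 0.68 in resected spleen, 3.37 ± 0.99 in intact blood and 3.22 ± 0.41 in resected blood. That of the 10 gamma-type genes was 4.90 ± 0.31, 3.81 ± 0.18, 4.12 ± 0.82 and 3.70 ± 0.29 in the same order. The mean of the first class fell by 1.25 and that of the second by 1.10 on the log2 scale after resection in the spleen, and by 0.15 and 0.42 in blood. The gap between the classes within a library, type I-type minus gamma-type, was -0.80 ± 0.39 (SD, n = 3) in intact spleen, -0.95 ± 0.54 in resected spleen, -0.75 ± 0.31 in intact blood and -0.48 ± 0.13 in resected blood. After resection it changed by -0.15 in spleen, less than the pooled within-group SD of 0.47, and by 0.27 in blood, more than the SD of 0.24. The change in blood rested in part on Cxcl9, with 5, 26 and 10 counts in the intact and 0, 7 and 1 in the resected libraries. Its log2 fold change there was -1.95 with a standard error of 0.99. Between the tissues after resection the class means differed in opposite directions, by 0.37 for type I-type and -0.10 for gamma-type genes (blood minus spleen), and the gap by 0.47 with an SD of 0.39, whereas in intact animals the differences were -0.73 and -0.78. The opposite directions rested on Cxcl9, with 0, 7 and 1 counts in resected blood and a log2 fold change of -4.67. Without Cxcl9 the gap hardly differed between the tissues after resection, and its values are given further below. These means over the classes carry no test.

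**Figure D4:**
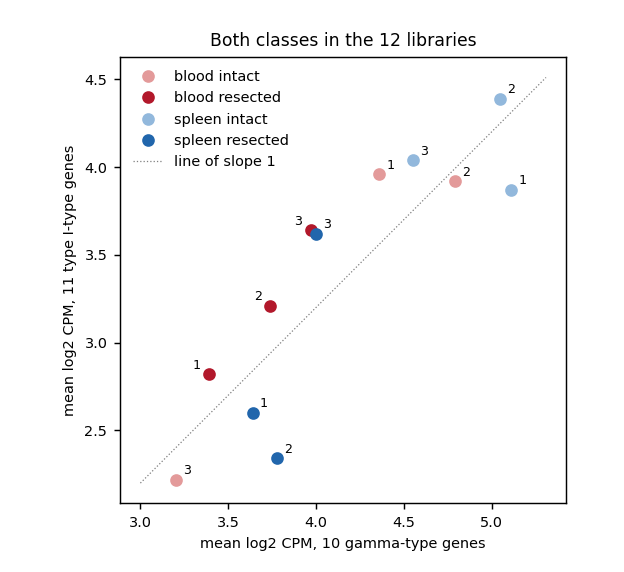
Each point is 1 library, with the mean log2 CPM of the 10 gamma-type genes on the horizontal and of the 11 type I-type genes on the vertical axis. Numbers are replicates and the dotted line has a slope of 1. Libraries lie on both sides of the line, with intact spleen at the upper end and intact blood library 3 at the lower end. In all 12 libraries the type I-type mean is below the gamma-type mean.

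The class means hide members that differ within a family. In blood after resection Oasl1 rose while Oasl2 had a log2 fold change of -1.31 (SE 0.63, adjusted p = 0.166), and Ifit2 and Mx1 fell while Ifit1 had a value of 0.65 (SE 0.70, adjusted p = 0.545). Among the guanylate-binding proteins, Gbp4 fell while Gbp5, which promotes inflammasome assembly, had a value of 1.32 (SE 0.54, adjusted p = 0.108). Gbp5 stood at 10.5, 15.2 and 3.30 CPM in intact blood and at 11.7, 20.5 and 40.2 CPM after resection, with overlapping groups. The differences between these relatives were not tested.

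Blood and splenic monocytes of intact animals were compared next, a comparison that shares its libraries with the resection comparisons above. Of the 43 members 1 was higher in blood (2.33%, all features 3.86%), Isg20, and 1 was lower (2.33%, all features 3.49%), Cxcl9, and 33 (76.7%) were below 0 (all features 51.1%). Isg20 stood at 200, 118 and 57.6 CPM in intact blood against the 15 to 24.3 CPM of intact spleen, with a log2 fold change of 2.74 and a standard error of 0.56 (adjusted p = 0.0167). Cxcl9 stood at 0.138, 0.668 and 0.218 CPM in intact blood, below every splenic library, with a log2 fold change of -4.12 and a standard error of 0.98 (adjusted p = 0.0306). Rsad2, the antiviral enzyme viperin, stood at 166, 119 and 40.4 CPM in blood and 16.7, 23.8 and 36.6 CPM in spleen, with a log2 fold change of 2.08, a standard error of 0.58 and an adjusted p of 0.0508. The Isg20 call was lost without intact spleen library 1 or 2 or intact blood library 1. The Cxcl9 call was lost without any 1 of the 3 intact spleen libraries, resected spleen library 1 or 2, or intact blood library 1 or 3. Without resected spleen library 1 there were 2 higher members, and without intact blood library 3 there were 3. DESeq2 called 2 higher (6.87% of all features) and 2 lower (5.88%). Of the marker lists, 5 of 6 T-cell and 5 of 7 erythroid markers were higher in blood, and 5 of 11 neutrophil, 4 of 8 red pulp macrophage and 3 of 6 conventional dendritic markers were lower, and their part in the members' values was not tested.

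After resection more members differed between the tissues. Of the 43 members 5 were higher in blood (11.6%, all features 6.28%), Isg15, Isg20, Oas1a, Rsad2 and Cxcl10, and 2 were lower (4.65%, all features 6.87%), Cmpk2 and Cxcl9. The median log2 fold change was 0.30 over the members and -0.14 over all features. The tissues did not overlap for 11 members in the higher direction (25.6%, all features 17.2%) and for 10 in the lower direction (23.3%, all features 25.1%). At an unadjusted p under 0.05, 11 members were higher in blood (25.6%, all features 14.3%) and 7 were lower (16.3%, all features 19.6%). Isg15 stood at 12, 16.9 and 22.2 CPM in resected spleen, against at least 50.4 CPM in resected blood, with a log2 fold change of 2.30 and a standard error of 0.44 (adjusted p = 0.00726). This call held in all 20 alternative fits. Cxcl10 had a log2 fold change of 2.43 with a standard error of 0.72 (adjusted p = 0.0410), and Isg20, at 195, 394 and 131 CPM in resected blood, one of 2.41 with a standard error of 0.55 (adjusted p = 0.0149).

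Rsad2 stood at 158, 297 and 141 CPM in resected blood and at 23.2, 59.4 and 65.4 CPM in resected spleen, with a log2 fold change of 2.01 and a standard error of 0.57 (adjusted p = 0.0361). Oas1a stood at 33.8, 45.1 and 58.6 CPM in resected blood and at 16.0, 12.4 and 30.6 CPM in resected spleen, with a log2 fold change of 1.22 and a standard error of 0.38 (adjusted p = 0.0471). Neither gene overlapped between the tissues. Cmpk2, a nucleotide kinase of mitochondria, went the other way, at 4.36, 6.32 and 6.0 CPM in blood and 9.27, 16.9 and 18.7 CPM in spleen (log2 fold change -1.43, SE 0.43, adjusted p = 0.0434). Cxcl9 had a log2 fold change of -4.67 with a standard error of 1.05 (adjusted p = 0.0144).

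The Oas1a and Cmpk2 calls were the weakest, holding in 8 and 4 of 20 alternative fits, while Cxcl10 held in 12, Rsad2 in 13, Isg20 in 18 and Cxcl9 in 19, the last lost without resected blood library 3. The number of higher members was 3 without intact spleen library 1, 2 without intact spleen library 2, resected spleen library 2 or resected blood library 3, 1 without resected spleen library 1 or resected blood library 2, 9 without resected spleen library 3 (7.53% of all features) and 8 without intact blood library 3 (8.61%). The number of lower members was 0 without resected blood library 3, 4 without intact blood library 3 and 1 without any other single library. DESeq2 called 8 higher (9.59% of all features) and 3 lower (8.42%). Between the tissues after resection 4 of 6 T-cell, 4 of 7 general monocyte and 5 of 7 erythroid markers were higher in blood, and 4 of 9 nonclassical monocyte, 3 of 8 red pulp macrophage, 3 of 6 conventional dendritic and 2 of 11 neutrophil markers were lower in blood. Their part in the members' values was not tested.

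The ligands and receptors of the pathway were read from lists outside the members. Of 21 interferon genes, 19 had at most 3 counts in any library, among them all interferon alpha genes listed, which is no more than a count of 0 allows. Interferon beta, Ifnb1, had 0 counts in all 3 intact blood libraries and 16, 45 and 51 counts after resection (0.488, 1.53 and 1.44 CPM). That is at least 15.3-fold higher, taking 3 counts per library as the limit in intact blood, and it was called (adjusted p = 0.00720), also in all 20 alternative fits. It had 0 counts in all 3 libraries of intact spleen and 1, 1 and 0 counts in resected spleen, so the level in resected blood was at least 16.5-fold above resected spleen (adjusted p = 0.0135).

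Interferon gamma, Ifng, stood at 2.23, 2.90 and 0.350 CPM in intact blood and at 0.793, 0.883 and 0.450 CPM after resection (log2 fold change -1.36, SE 0.72, adjusted p = 0.202). In the spleen it stood at 2.08, 3.80 and 5.64 CPM in intact animals and at 1.94, 0.786 and 0.910 CPM after resection (log2 fold change -1.66, SE 0.72, adjusted p = 0.224). Ifng is made mainly by T and NK cells, whose marker sums were also lower in resected than in intact libraries of both tissues. Within intact blood, library 3 had the lowest Ifng but the highest T-cell sum (2181 CPM, against 655 and 658 CPM). Its NK-cell sum was the lowest of that group (141 CPM, against 240 and 325 CPM). The part of these cells in the Ifng values was not tested.

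Of 6 receptor chains, 3 were higher in blood after resection (all features 7.80%) and 0 in the spleen (all features 0.780%). In the spleen edgeR found 0 at an unadjusted p under 0.05 (all features 11.5% higher and 9.31% lower). DESeq2 called 0 there (all features 4.75% higher and 3.02% lower). Ifnar2 stood at 78.7, 72.2 and 48.8 CPM in intact blood and at 129, 145 and 240 CPM after resection, with a log2 fold change of 1.36 and a standard error of 0.28 (adjusted p = 0.00867). Il10rb, which pairs with several receptor chains, rose by 1.42 on the log2 scale with a standard error of 0.29 (adjusted p = 0.00847). Ifnlr1, the chain specific to interferon lambda, stood at 0.853, 1.70 and 0.284 CPM in intact blood and at 2.99, 4.14 and 19.0 CPM after resection (log2 fold change 3.21, SE 0.81, adjusted p = 0.0208). Its resected libraries spread widely, and the call was lost without resected blood library 3 or intact blood library 1, with the replicate block and when only the 2 blood groups were fitted. In blood Ifnar1 had a log2 fold change of 0.64 (adjusted p = 0.0859), Ifngr1 one of 0.33 (adjusted p = 0.499) and Ifngr2 one of 0.83 (adjusted p = 0.0616).

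Stat2, a transcription factor of the type I pathway, had log2 fold changes of -0.81 in blood (adjusted p = 0.0156) and -0.77 in spleen (adjusted p = 0.0656), under the fold limit in both. Socs1, a feedback inhibitor of the receptors, had a log2 fold change of 0.61 in blood (adjusted p = 0.103) and 0.33 in spleen (adjusted p = 0.480). Of the 8 signalling genes reported, edgeR called 1 higher (Socs3) and 0 lower in blood (all features 7.80% and 6.11%). It called 0 in the spleen (all features 0.780% and 0.596%). At an unadjusted p under 0.05 there was 1 lower in each tissue (all features 19.0% in blood and 9.31% in spleen). In blood edgeR had Jak2, Socs1, Socs3 and Ptpn2 higher at that limit (unadjusted p = 0.0188, 0.0319, 0.000107 and 0.0447), as were 16.9% of all features. In the spleen no signalling gene reported was higher at that limit (all features 11.5%). DESeq2 called 0 lower (all features 8.03% and 3.02%). Socs3 responds to many cytokines. Of 15 sensors and adaptors that lead to interferon production, 1 was called higher (Myd88) and 1 lower (Mavs) in blood (all features 7.80% and 6.11%). In the spleen 0 were called (all features 0.780% and 0.596%). There 6 were lower at an unadjusted p under 0.05 (all features 9.31%) and DESeq2 called 1 lower (all features 3.02%).

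**Figure D5:**
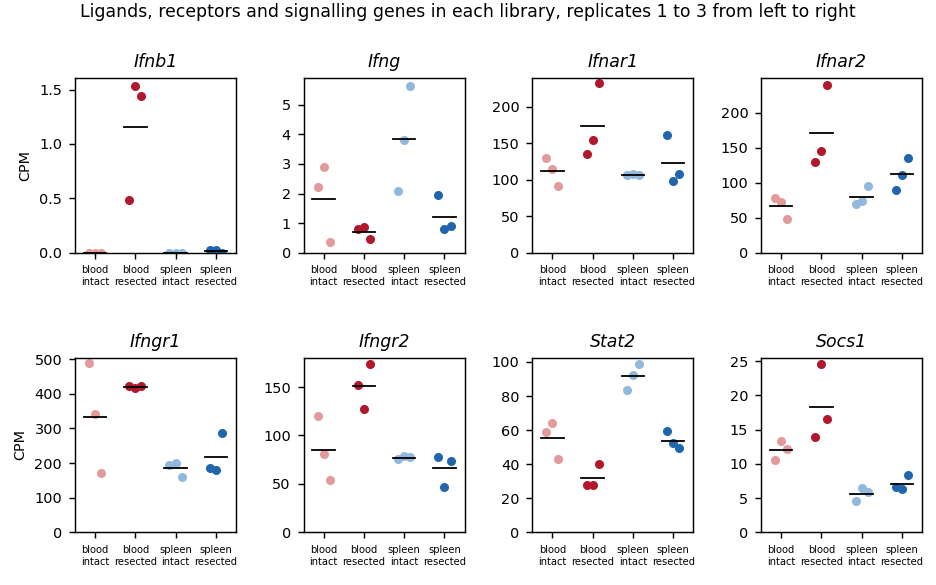
Each point is the CPM of 1 library on a linear axis from 0, and the bar is the mean of the 3 libraries of a group. Ifnb1 rises above 0.4 CPM only in resected blood and Ifnar2 is higher in resected than intact blood.

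A further list of 85 interferon-stimulated genes outside the members, 81 of them tested, was also mostly below 0 in the spleen after resection. There 64 of the 81 (79.0%) were below 0 (all features 46.4%), and 49 (60.5%) did not overlap in the lower direction (all features 17.7%). The median log2 fold change was -0.58 (all features 0.05), with 0 called higher and 2 called lower (all features 0.780% and 0.596%). At an unadjusted p under 0.05 there were 7 higher and 36 lower (11.5% and 9.31% of all features). DESeq2 called 4 higher and 16 lower (4.75% and 3.02% of all features). The 2 lower genes in edgeR were Slfn5 (log2 fold change -2.12, SE 0.28, adjusted p = 0.0180) and Ifi47, an immunity-related GTPase (log2 fold change -1.58, SE 0.24, adjusted p = 0.0253). The Slfn5 call was lost without intact spleen library 1 or 2 or resected spleen library 3, and the Ifi47 call without intact spleen library 1 or 2, any 1 of the 3 resected spleen libraries, or resected blood library 2.

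In blood 11 of the 81 were higher (13.6%, all features 7.80%) and 9 were lower (11.1%, all features 6.11%), with a median of -0.16 (all features -0.10). By the smallest p, the leading higher ones were Lgals3bp (log2 fold change 1.26, adjusted p = 0.00181), Ifitm1 (6.06, adjusted p = 0.00181) and Fcgr1, the high-affinity receptor for IgG (2.18, adjusted p = 0.00495). Ifitm1 stood at 3.74, 5.29 and 2.25 CPM in intact blood and at 94.7, 170 and 489 CPM after resection. The leading lower ones were Parp11 (-1.73, adjusted p = 0.00129), Ifi47 (-1.43, adjusted p = 0.00386) and Slfn5 (-1.50, adjusted p = 0.00528).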

How the data were processed

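RNA-seq was analysed in 12 libraries, 3 in each of 4 groups taken from the sample labels. Unscaled estimated counts were deposited, with 1 table for each library. The submitters' processing notes name STAR and GRCm39; the counting tool, annotation, strand setting and treatment of shared reads are not given in the sources used here. Of 67088 entries, 2558 were unassigned transcripts (1.75% to 4.33% of the counts), which did not enter any step. RefSeq accessions were matched to symbols (25340 of 40274, GRCm38.p6 table, names only), which gave Mx1 and Mx2, and counts were summed per gene and rounded. Features kept by filterByExpr were scaled with TMM and fitted with glmQLFit and glmQLFTest (edgeR 4.0.16 in R 4.3.3) over all 12 libraries without covariates, with Benjamini-Hochberg adjustment. The standard error is the absolute log2 fold change divided by the square root of F. Mean log2 CPM used a prior count of 2. Intervals and the limit of 3 counts cover counting error only, without molecular identifiers. Replicates differed by more than counting noise.

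The members, lists, tests and alternatives were chosen with earlier results of these data known. Per-library values are given for members that were called and for the 3 with the largest change of each class in each resection comparison; of other genes, Ifnb1, Ifng, receptors, Stat2, Socs1 and, among further interferon-stimulated genes, the 3 smallest p per direction are named; 1 gene of the signalling list is not reported here. Gbp5, Jak2, Ptpn2, Socs3, Myd88, Mavs and the relatives set against called genes were named after their values were seen. Scripts were tested on simulated data. The simulated libraries spread less than the real ones, so recovery at the spread of these data was not measured. Alternatives were DESeq2 1.42.0, RLE factors, other count filters, haemoglobin genes left out, entries as deposited, no fold limit, only the groups compared, a replicate block and each library left out.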

Additional observations from a re-analysis of the deposited data

How the results depend on the processing

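Each member had at least 10 counts in 3 or more libraries, whereas at this depth 19 of 21 interferon genes had at most 3 counts in any library. Blood after resection against intact had 1 higher and 3 lower members when only those 2 groups were fitted (all features 6.14% and 2.92%). In the spleen DESeq2 gave 1 higher and 8 lower. For intact blood against intact spleen there were 2 higher with DESeq2, RLE factors or haemoglobin genes left out, and 2 lower with DESeq2 or no fold limit. Of all features 4.12% were higher with RLE factors and 4.33% without haemoglobin genes, and 938 of 20135 were lower without a fold limit. For resected blood against resected spleen there were 8 higher with DESeq2 and 3 without a count filter (all features 3.58%). The lower count was 1 with RLE factors, no count filter, haemoglobin genes left out or entries as deposited (all features 5.63%, 2.80%, 5.47% and 4.97%). It was 4 when only those groups were fitted (all features 7.53%). DESeq2 found 5 members with a higher resection effect in blood than in spleen. The gap between the classes went to -0.32 (intact) and -0.01 (resected) for blood against spleen when Cxcl9 was left out. Cxcl9 was the only member under 10 counts in any library, and with all members the gap was 0.05 and 0.47. Leaving out haemoglobin genes moved the median of all features from -0.02 to 0.10 for intact and from -0.14 to -0.02 for resected blood against spleen. The causes were not tested.

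The labels do not say whether the replicate numbers pair the samples. The correlation of same-numbered deviations ran from -0.047 to 0.231, which cannot decide whether the same animals gave both tissues. With the replicate number as a block, blood had 3 higher and 8 lower members (all features 6.39% and 4.38%) and spleen 0 and 1 (0.412% and 0.333%). Intact blood against spleen had 1 and 1 (all features 2.88% and 2.90%), and resected blood against spleen 2 and 1 (5.59% and 5.62%). With that block Oas2 in blood had a log2 fold change of -0.07, and Ifih1 in spleen one of -0.01.

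With each library left out in turn, the higher and lower counts ran from 2 to 4 and from 2 to 10 in blood, 0 to 0 and 0 to 8 in spleen, 0 to 3 and 0 to 1 for intact blood against spleen, 1 to 9 and 0 to 4 for resected blood against spleen, and stayed at 0 for the difference of the effects. The shares of all features ran from 4.70% to 7.78% and 3.01% to 5.82% in blood, and from 0.00473% to 2.97% and 0% to 1.89% in spleen. For intact blood against spleen they ran from 1.45% to 4.75% and 1.06% to 2.78%, and for resected from 4.03% to 8.61% and 2.85% to 8.60%. The gap between the classes changed by 0.16 to 0.44 in blood and by -0.44 to 0.10 in spleen. For intact blood against spleen it ran from -0.17 to 0.20, and for resected blood against spleen from 0.23 to 0.76. No called gene changed sign in any alternative. Uncalled ones that did so in blood ran from -0.36 to 0.28 for Oas2, -0.20 to 0.78 for Oas3, -0.54 to 0.21 for Irf7, -0.16 to 0.35 for Ifi35, -0.09 to 0.55 for Dhx58, -0.32 to 0.44 for Rtp4, -0.15 to 0.42 for Trim30a and -0.30 to 0.35 for Gbp2, which was at -0.0015 without a count filter. In spleen they ran from -0.37 to 0.06 for Isg15, -0.03 to 0.44 for Irf1, -0.14 to 0.16 for Ifih1 (-0.0021 without a count filter), -0.06 to 0.33 for Ifnar1 and -0.01 to 0.35 for Ifngr1.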

Other observations

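The genes of the wider list given here were chosen after their values were seen, and none was called in spleen. The immunoproteasome subunits Psmb8, Psmb9 and Psmb10, which shape peptides for MHC class I, had log2 fold changes of -0.65, -0.60 and -0.69 in spleen after resection, with standard errors of 0.17, 0.24 and 0.20, and the transporter Tap1 one of -0.77 with a standard error of 0.32. The libraries of the 2 states did not overlap for any of these 4, and by edgeR's quasi-likelihood test the adjusted p-values were 0.0714, 0.192, 0.0972 and 0.205. In blood the values were -0.43, -0.26, -0.02 and -0.46, and none of the 4 was called. Other genes of that list had higher values in spleen after resection: Ifitm1, Ifitm6 and Cd274 had log2 fold changes of 3.33, 3.05 and 1.86 (adjusted p = 0.0508, 0.0604 and 0.0654).

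Rsad2 and Cmpk2 lie next to each other in the mouse genome and are often described as induced together. In blood after resection Rsad2 had a log2 fold change of 0.87 (SE 0.56, adjusted p = 0.291) and Cmpk2 one of -1.16 (SE 0.43, adjusted p = 0.0803). In spleen after resection the values were 0.94 (adjusted p = 0.372) and -0.70 (adjusted p = 0.375). The difference between the neighbours was not tested.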
